A study of Danio rerio with 6 samples.

Results

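The let-7 microRNAs (miRNAs) of the 24 h zebrafish embryo were described across 3 ethanol doses. Members were the probes whose name in the scanner files contains a zebrafish let-7 name. Of the 243 probes named for zebrafish miRNAs, 10 met this rule, dre-let-7a, dre-let-7b, dre-let-7c, dre-let-7d, dre-let-7e, dre-let-7f, dre-let-7g, dre-let-7h, dre-let-7i and dre-let-7j (let-7a to let-7j below), with 4 spots each and therefore 240 let-7 spots over the 6 arrays. The rule used names alone and no measured value. Whole embryos were kept in system water (control, 0% ethanol), 1% ethanol or 1.5% ethanol from 4 to 24 h after fertilisation, 200 embryos to a dish, and total RNA was taken at 24 h. Each group had 2 arrays with 1 colour, which the labels call biological replicates, and their number limits the precision of every value below. The labels give no genotype or transgene for these embryos.

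The let-7 family regulates the timing of development. It was found in the nematode Caenorhabditis elegans, where let-7 drives the passage from larval to adult cell fates, and mature let-7 in vertebrates accumulates as cells differentiate. The RNA-binding protein Lin28 blocks its maturation in early and undifferentiated cells, and known targets of the family include lin-41/trim71, Ras genes and Hmga2. Members share a seed and differ from each other at few bases, so related members can share signal on hybridisation probes.

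Most probes serve more than 1 gene or species. In the RefSeq annotation of the zebrafish assembly GRCz12tu all 10 members were matched, to 18 let-7 genes. The let-7a probe stands for 6 of them, those of let-7c, let-7d and let-7g for 2 each, and the other 6 for 1 each. The let-7a probe also carries names from 11 species, while the let-7j probe carries a zebrafish name only. Of the 18 genes, 12 have another miRNA gene within 10 kb. The gene of let-7b lies beside a let-7a gene, and so do those of let-7e and let-7f. Both let-7c genes lie beside a miR-99 gene, and 1 of them also lies beside mir125c. A pair of let-7a genes has miR-100 and miR-125b neighbours, and 1 let-7g gene lies beside the let-7h gene. The genes of let-7d, let-7i and let-7j, 1 let-7a gene and 1 let-7g gene have no such neighbour.

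Only let-7b and let-7e gave signal above the empty spots of the array in every sample, let-7c did so on 3 arrays and let-7g on 1, and the other 6 members on none. This call required that at least as many kept spots of the probe exceeded the limit as fell short of it, the limit being the 95th percentile among that array's empty and blank spots. In intensity units that limit was 451 and 277 in control, 350.25 and 335 with 1% ethanol, and 392 and 256 with 1.5% ethanol. In all, 16 of 60 pairs of a let-7 probe and an array (26.7%) lay above it, beside 276 of 1458 pairs (18.9%) over all zebrafish probes. Among reference miRNAs of the whole embryo, 5 of 10 cleared the empty spots on all 6 arrays, namely miR-9 of the nervous system, miR-1 of muscle, miR-203a of the epidermis, and miR-430b and miR-430j of the early embryo. The nervous system miRNA miR-124, the muscle miRNA miR-133a and miR-430a did so on 1 array each, and miR-430c and the liver miRNA miR-122 on none. Ignore marks of the quantification software covered 4.64% to 11.7% of the spots of an array. For the 6 let-7 members on no array, a value here is a bound near background, and a lower abundance cannot be told from background.

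In the model fitted across all zebrafish probes, no let-7 member passed an adjusted p of 0.05 in any comparison (limma, Benjamini-Hochberg over 243 probes). With 1% ethanol against control, 0 of 10 members were called, beside 0.412% of all zebrafish probes. At 1.5% ethanol against control the call rate over all probes was 0%, and at 1.5% against 1% ethanol it was also 0%. At an unadjusted p under 0.05 the counts were 1 member at 1% ethanol against control (background 6.17%), 0 at 1.5% against control (4.94%) and 1 at 1.5% against 1% ethanol (7.41%). In both cases the member was let-7c, as it was in the test for any difference among the 3 groups, with 1 of 10 members (background 5.76%) and 0 members at an adjusted p under 0.05 (background 0.412%). The lowest adjusted p of any member was 0.498 for 1% ethanol against control, 0.964 for 1.5% against control and 0.404 for 1.5% against 1% ethanol. Both comparisons with control use the same 2 control arrays.

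The median log2 fold change of the 10 members was -0.17 at 1% ethanol against control, where that of all zebrafish probes was 0.00, with 7 of 10 members below 0 (49.4% of all probes). At 1.5% ethanol against control the median was -0.10 for the members and 0.01 for all probes, with 6 of 10 members below 0 (49.0% of all probes). Between 1.5% and 1% ethanol it was 0.05 for the members and -0.05 for all probes, with 5 of 10 members below 0 (56.4% of all probes). The median standard error (SE) of a member's difference was 0.29, larger than the 0.21 over all zebrafish probes. With 2 arrays a group, the smallest two-sided p of an exact permutation test is 0.333, and the tests of single members therefore come from the model.

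**Figure D1:**
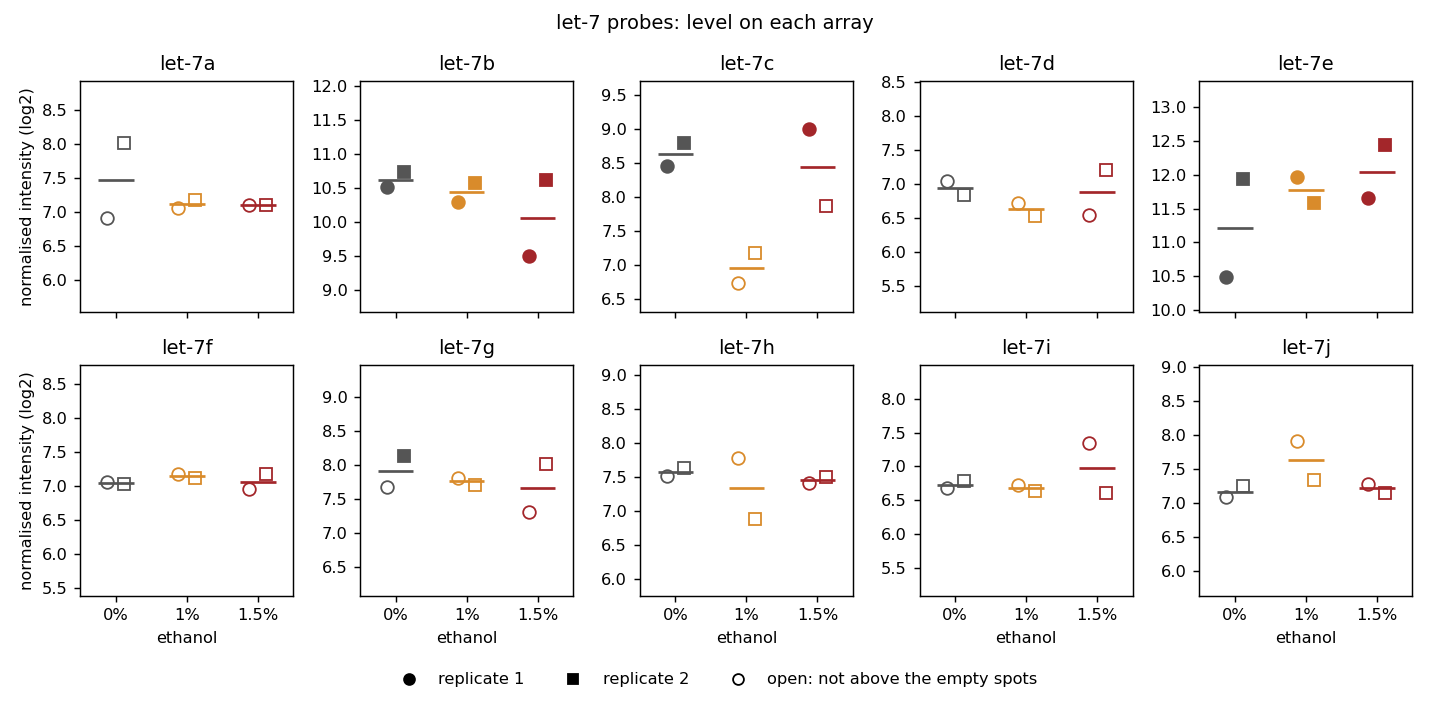
Normalised log2 intensity of each let-7 probe (vertical axes, all spanning the same number of log2 units) on the control (0%), 1% and 1.5% ethanol arrays; circles are replicate 1, squares replicate 2, bars group means, and open symbols arrays on which the probe was not above the empty spots. In the let-7c panel both 1% arrays, at 6.73 and 7.18, lie below all 4 other arrays, while in the let-7b and let-7e panels a single array sits apart.

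The let-7c probe, which serves 2 genes, had the widest spread of any member over the 6 arrays, 2.27 log2 units. Its normalised log2 intensity was 8.46 and 8.79 in control embryos, 6.73 and 7.18 at 1% ethanol, and 9.0 and 7.87 at 1.5% ethanol. Both 1% arrays lay below all others, and the 1.5% arrays lay on either side of the control arrays. It exceeded the empty spots in both controls and on the first 1.5% array, and on neither 1% array. On the first control array that call was a tie, with 2 of the 4 kept spots over the limit. Because let-7c in the embryo is measured in bulk RNA, fewer cells that contain it and less of it per cell cannot be told apart, here and for every member.

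Against control, the let-7c level was 6.95 ± 0.32 at 1% ethanol and 8.62 ± 0.23 in control (SD, n = 2 each), a log2 fold change of -1.67 (SE 0.39, 95% confidence interval -2.62 to -0.73). It ranked 2 of 243 probes in the model's order of evidence, with a limma adjusted p of 0.498. Because let-7c did not clear the empty spots on either 1% array, only a bound can be given for the size. The floor, the lowest level of any probe above the empty spots, had a mean of 7.87 on the 1% arrays. Against it, the group means put let-7c at least 1.69-fold lower at 1% ethanol than in control. That size uses the control mean of 8.62 without its spread between arrays or between spots, and the difference was not called. On the first control array the let-7c spots of the upper print blocks had a mean of 7.52 and the lower ones 9.4. The value of 7.52 lies under the floor mean, so the upper blocks of that array give no minimum size. Among zebrafish probes, 5 lay over this floor on both 1% arrays without being called above the empty spots. The floor and the call therefore do not coincide, and the bound is approximate.

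Between 1.5% and 1% ethanol let-7c differed by 1.49 (SE 0.39, interval 0.54 to 2.43), with an adjusted p of 0.404 in limma. Its mean at 1.5% ethanol was 8.44 ± 0.80 (SD, n = 2), from 1 array above the empty spots, at 9.0, and 1 array not above them, at 7.87. With 1 of 2 arrays at 1.5% above the empty spots, no minimum size of this difference is given. At 1.5% ethanol against control the difference was -0.18 (SE 0.39, interval -1.13 to 0.76, limma adjusted p 0.977). The interval of that difference covers changes of about 1 log2 unit downward, so the 2 groups are not shown to be alike. The moderated F test over the 3 groups gave let-7c a limma adjusted p of 0.422. From high to low its group means ran control, 1.5% ethanol, 1% ethanol, and only the 1% arrays were clear of both others.

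Slides held 2 arrays each, per the scanner-file headers, and each slide held a different pair of groups. On slide 1 let-7c read 6.73 on the 1% array and 8.46 on the control array, a difference of -1.73. On slide 3 it read 7.87 on the 1.5% array and 7.18 on the 1% array, a difference of 0.70. Slide 2 gave 9.0 for its 1.5% array and 8.79 for its control array, a difference of 0.22. The 1% array was thus the lower one on both slides that held one. With slide as a block the difference of 1% ethanol from control was -1.31 (SE 0.43, limma adjusted p 0.166). That SE was 0.43 for every member in every comparison, so it is a spread pooled over probes and not let-7c's own. At 1% ethanol against control, let-7c passed the threshold in 2 of 29 alternative settings, beside a limma adjusted p of 0.498 in the main fit. In 1 of them the arrays were scaled on their empty and blank spots (-1.84, limma adjusted p 0.0437). The other was chosen after seeing the data. Scaling on those spots also moved the median of all zebrafish probes from 0 to -0.21. It moved that of the let-7 members from -0.17 to -0.35.

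Raw spots showed how the let-7c values arose. On the first control array its 4 spots read 208, 254, 877 and 795 intensity units, the first 2 in an upper and the last 2 in a lower print block. On the second control array they read 556, 597, 706 and 106. The spots therefore disagreed on both control arrays, by a factor of 4.22 on the first and 6.66 on the second.

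At 1% ethanol the let-7c spots read 89, 90, 136 and 100 on the first array and 109, 119, 182 and 141 on the second. All 8 were below the limit of the empty spots. Every one was also below the first 3 spots of the second control array and below all 4 of the first, which stayed between 208 and 877. At 1.5% ethanol they read 510, 529, 651 and 570 on the first array, all above the limit, and 200, 221, 267 and 184 on the second, with 1 above it. None of these spots carried the ignore mark of the quantification software. Without the first 1.5% array the difference of 1.5% ethanol from control was -0.75, and without the second it was 0.38, so its direction rests on which array is used. The same choice gave a difference of 1.5% from 1% ethanol of 0.92 without the first and 2.05 without the second.

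**Figure D2:**
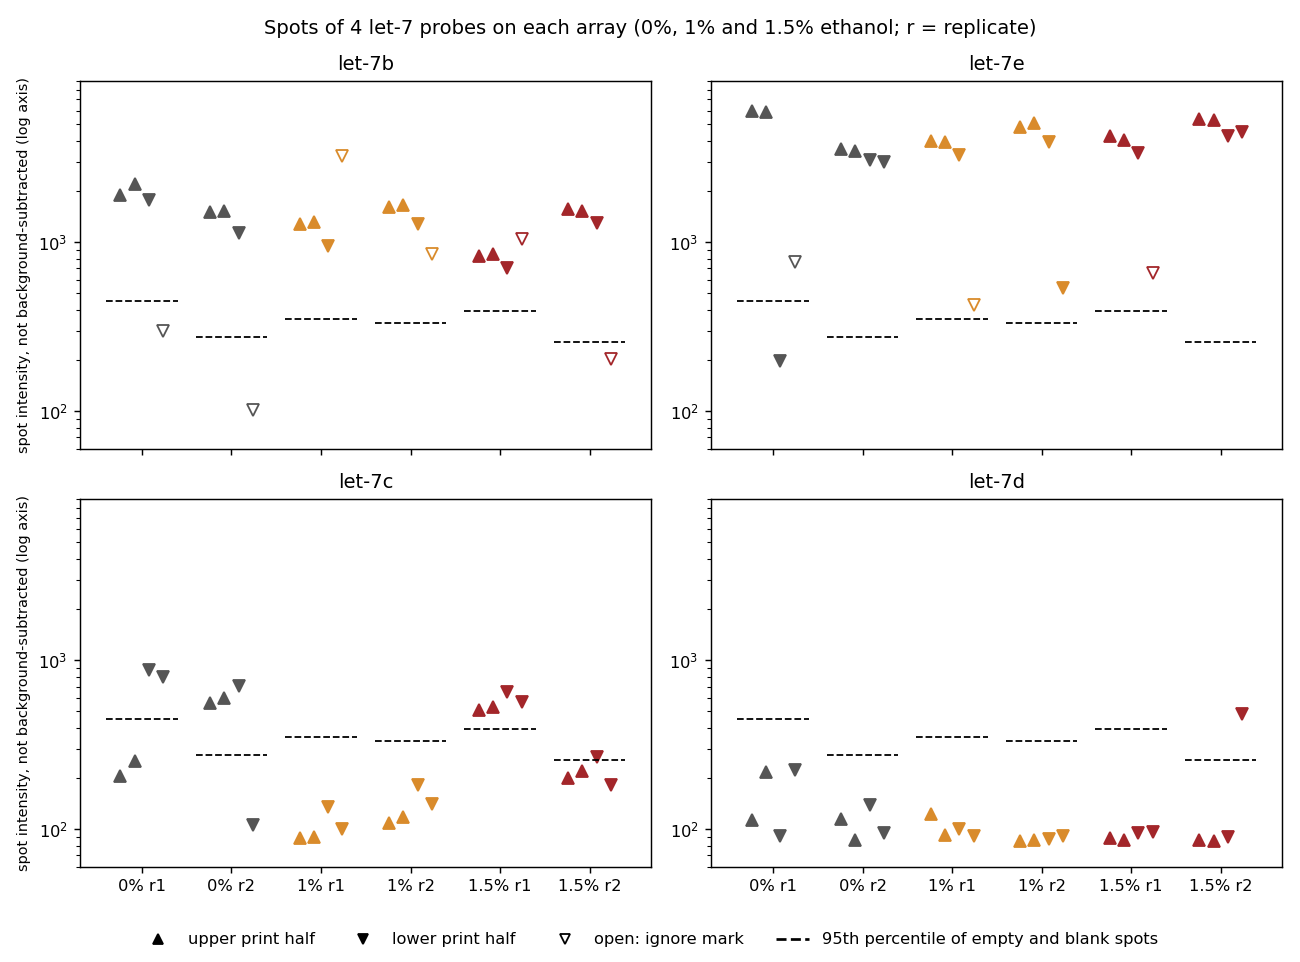
Raw spot intensity (log axis, not background-subtracted) of let-7b, let-7e, let-7c and let-7d on each array of the 0%, 1% and 1.5% ethanol groups, with r for replicate; upward triangles are spots of the upper print blocks, downward triangles of the lower ones, open symbols carry the ignore mark, and dashed lines mark the limit set by the empty spots, their 95th percentile. All 8 let-7c spots at 1% ethanol lie below the dashed lines, and a single let-7e spot at 199 stands far below its upper-block spots near 5984 on the first control array.

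The let-7e probe, which also carries the chicken name let-7k, cleared the empty spots on all 6 arrays. Its normalised log2 intensity was 10.49 and 11.93 in control embryos, 11.97 and 11.58 at 1% ethanol, and 11.65 and 12.44 at 1.5% ethanol. The first control array was the lowest of the 6, and apart from it the groups overlapped. The difference from control was 0.57 at 1% ethanol (SE 0.50, interval -0.65 to 1.79) and 0.84 at 1.5% ethanol (SE 0.50, interval -0.38 to 2.06). Neither passed the test, with limma adjusted p-values of 0.874 and 0.964.

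That low control value came from 1 spot of let-7e. On the first control array the upper-block spots read 5984 and 5926, the third spot read 199, and the fourth, at 762, carried the ignore mark and was left out. The spread over the 3 kept spots was 30.1-fold, with an SD of 2.63 log2 units, the widest of any member on any array. On the second control array all 4 let-7e spots were kept and read 3572, 3489, 3081 and 2998.

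Taken from the upper-block spots alone, let-7e stood at 12.05 and 12.53 at 1% ethanol, at 11.71 and 12.54 at 1.5% ethanol, and at 12.01 and 12.04 in control. In these spots the control arrays lay within the range of the 1.5% arrays. Differences by print block came from arrays normalised anew on the spots of those blocks, unlike the levels above. The difference of 1% ethanol from control was 0.22 in the upper blocks and 1.65 in the lower blocks, against 0.57 over all kept spots. Without the first control array it was -0.15, and without the second it was 1.29. The difference of 1.5% ethanol from control was 0.08 in the upper blocks and 2.29 in the lower blocks, 0.12 without the first control array and 1.56 without the second. On slide 1, which held that first control array, the 1% array was 1.48 higher. At 1% ethanol the second array also had a low kept spot, with let-7e at 4823, 5087, 3925 and 536, a 9.49-fold spread. The 536 was the fourth spot, which carried the ignore mark for let-7e on 3 other arrays. At 1.5% ethanol the kept spots agreed, at 4276, 4016 and 3380 on the first array and 5389, 5312, 4278 and 4514 on the second.

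The let-7b probe, whose gene neighbours a let-7a gene, had normalised log2 intensities of 10.52 and 10.74 in control embryos, 10.30 and 10.58 at 1% ethanol, and 9.51 and 10.63 at 1.5% ethanol. The first 1.5% array was the lowest, and the second lay between the control arrays. The difference from control was -0.19 at 1% ethanol (SE 0.37, interval -1.08 to 0.70, limma adjusted p 0.919). At 1.5% ethanol it was -0.56 (SE 0.37, interval -1.45 to 0.33, limma adjusted p 0.964).

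The 1.5% value of let-7b rested on 1 array. Without the first 1.5% array the difference from control was 0.00, and without the second it was -1.12. On slide 2, which held the first 1.5% array and the second control array, the difference was -1.23. Its kept spots read 824, 851 and 706, while those of the second read 1579, 1538 and 1309. Control embryos had kept let-7b spots of 1917, 2224 and 1778 on the first array and 1517, 1529 and 1142 on the second. Kept spots at 1% ethanol read 1275, 1315 and 946 on the first array and 1628, 1665 and 1282 on the second.

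Kept spots of let-7b thus agreed closely within every array, while the fourth spot carried the ignore mark on all 6. In control the marked spot read 298 and 102, with 1% ethanol 3231 and 854, and with 1.5% ethanol 1039 and 204. With such spots kept, the let-7b difference from control was 0.46 at 1% ethanol in place of -0.19, and -0.04 at 1.5% in place of -0.56. The ignore mark fell on 19 of the 240 let-7 spots (7.92%), each time on the fourth spot of the probe: 6 times for let-7b, 6 for let-7f, 3 for let-7e, 2 for let-7h and once each for let-7g and let-7j. Over all zebrafish probes the fourth spot carried the mark in 22.6% of cases and the others in 0.96% to 2.95%.

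Only let-7b and let-7e could be set beside other miRNAs by their pattern, since a comparison was made among probes above the empty spots on all 6 arrays. Each probe was centred on its own mean, and the root mean square difference over the 6 arrays was taken against 26 other zebrafish probes. Nearest to let-7b were miR-737, at 0.16 log2 units, and miR-34c, at 0.21, where the median was 0.40. On the first 1.5% array let-7b was at its lowest, 9.51, and so were miR-737, at 9.57, and miR-34c, at 8.95. The likeness to let-7b therefore rests in part on that array. Some other probes were also lowest there, among them miR-92b at 10.61 and miR-30e at 10.64, while others were not. Nearest to let-7e were miR-18b*, at 0.38, and miR-27c*, at 0.48, where the median was 0.67. The let-7e pattern includes its low value of 10.49 on the first control array, which came from a single spot of 199. On that array miR-18b* and miR-27c* were also at their lowest, 9.19 and 10.74, so the likeness to let-7e rests in part on that spot. These are descriptions of 6 arrays.

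**Figure D3:**
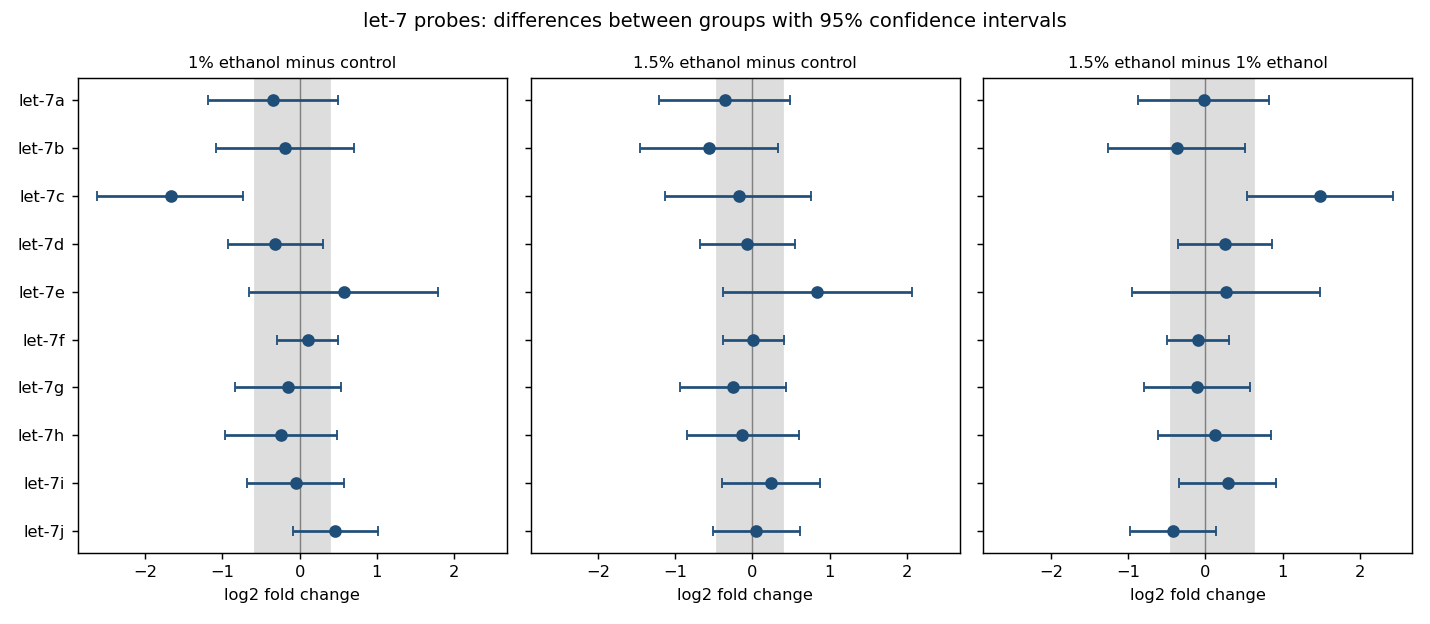
Log2 fold change of each let-7 member (points) with its 95% confidence interval (bars) for 1% ethanol minus control, 1.5% ethanol minus control and 1.5% minus 1% ethanol; the grey band runs from the 5th to the 95th percentile of the 243 zebrafish probes. let-7c, at -1.67 and 1.49 in the first and last panels, is the member whose interval leaves 0, and its adjusted p-values there are 0.498 and 0.404.

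Each of the other 7 members lay near background, with differences from control between -0.36 and 0.46. Group values did not overlap for few members. Both 1% arrays were higher than both control arrays for 2 of 10 members (let-7f and let-7j), as for 20.6% of zebrafish probes, and lower for 2 of 10 (let-7c and let-7d), as for 16.9%. Both 1.5% arrays were higher than control for 0 of 10 (11.5% of probes) and lower for 1 of 10 (let-7h, 17.3%). Between 1.5% and 1% ethanol let-7c was higher without overlap (15.2%) and let-7j lower (16.5%). With 10 members, counts of 0 to 2 lie near these background shares.

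The let-7j probe, the one with a zebrafish name alone, read 7.08 and 7.24 in control, 7.91 and 7.34 at 1% ethanol, and 7.27 and 7.15 at 1.5% ethanol. Its difference at 1% ethanol against control, 0.46 (SE 0.23, interval -0.09 to 1.02), had a limma adjusted p of 0.874. The high first 1% array rests on 1 spot, since its kept spots ranged from 140 to 687 and exactly 1 lay over the empty spots.

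For let-7d, with 2 genes outside any cluster, levels were 7.04 and 6.84 in control, 6.72 and 6.53 at 1% ethanol, and 6.55 and 7.21 at 1.5% ethanol. Both 1% arrays lay below both control arrays, with a mean difference of -0.32 (SE 0.25, interval -0.93 to 0.30, limma adjusted p 0.874). The second 1.5% array had let-7d spots of 86, 85, 90 and 481, so a single spot carried the highest let-7d value of the 6 arrays.

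A different value for let-7d came from a file that treats dim spots otherwise. In the authors' deposited table its log2 values were -0.20 and -0.63 in control, -0.47 on the first 1% array and 1.92 on the second 1.5% array, with no value on the other 2. That table leaves out spots under 100 units, and the 1.92 rests on the spot of 481 alone. On the values of the authors' deposited table the let-7d difference at 1.5% ethanol against control was 2.33 (SE 0.46, limma adjusted p 0.0465), with 1 array in the 1.5% group, which the model takes to vary like the arrays of the other groups. From the scanner intensities it was -0.07 (SE 0.25, interval -0.68 to 0.55). That value uses both 1.5% arrays and the 3 dim spots.

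The let-7a probe, standing for 6 genes, read 6.91 and 8.01 in control, 7.05 and 7.17 at 1% ethanol, and 7.10 and 7.09 at 1.5% ethanol. All 4 ethanol values lay between the control values. The higher of these came from 1 spot of 972 beside 140, 131 and 180 on the second control array. Against control the difference was -0.34 at 1% ethanol (interval -1.19 to 0.50) and -0.36 at 1.5% (interval -1.21 to 0.49). Without the second control array these were 0.21 and 0.19, and without the first -0.89 and -0.91.

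The let-7g probe read 7.68 and 8.13 in control, 7.81 and 7.71 at 1% ethanol, and 7.30 and 8.01 at 1.5% ethanol, and the groups overlapped. It was above the empty spots on the second control array only, by a tie of 2 among 4 kept spots. With 1 of 2 control arrays above the empty spots and no ethanol array, no size of a difference is given. A kept spot of let-7g on the first 1.5% array had an intensity of 0, beside spots of 211, 200 and 222.

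The let-7f probe, whose gene neighbours a let-7a gene, had the narrowest spread of the family, 0.24 log2 units over the 6 arrays, with 7.06 and 7.03 in control, 7.18 and 7.11 at 1% ethanol, and 6.95 and 7.17 at 1.5% ethanol. Its 1% arrays were higher than control without overlap, by 0.11 in the mean (SE 0.16, interval -0.29 to 0.50, limma adjusted p 0.916).

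let-7h read 7.52 and 7.63 in control, 7.78 and 6.89 at 1% ethanol, and 7.41 and 7.50 at 1.5% ethanol. The 1% arrays lay on either side of the others, and on the first of them the kept spots ranged from 98 to 904, with a single one over the empty spots. Each control array also had a single kept let-7h spot over the empty spots, with ranges of 174 to 486 and 124 to 326. The 1.5% arrays lay below both control arrays by a narrow margin, with 7.50 next to 7.52. let-7i read 6.69 and 6.78 in control, 6.73 and 6.64 at 1% ethanol, and 7.34 and 6.61 at 1.5% ethanol, and its first 1.5% array likewise had a single high spot, with a range of 92 to 509.

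The spots of a let-7 probe disagreed widely in a minority of pairs of probe and array. The median SD over the kept spots of a let-7 probe on 1 array was 0.21 log2 units, beside 0.19 over zebrafish probes, so the typical probe agreed as well as the rest. An SD over 1 log2 unit occurred in 9 of 60 let-7 pairs of probe and array (15.0%) and in 69 of 1458 over all zebrafish probes (4.74%). These 9 were let-7c and let-7e on the first control array, let-7a and let-7c on the second, let-7h and let-7j on the first 1% array, let-7e on the second, let-7i on the first 1.5% array and let-7d on the second. No array held more than 2 of them.

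A single spot over the limit of the empty spots, with the other kept spots under it, was found in 9 pairs over 7 members. No count over all zebrafish probes is set beside it. Not all of these pairs were disagreements, since spots close to the limit can lie on either side of it. On the second 1.5% array let-7c had such a pair with an SD of 0.23 log2 units and let-7g with 0.34. Of the 221 kept let-7 spots 58 lay over the limit of the empty spots. While 210 were over their local background by 2 SD, most empty spots pass that limit too, so it does not mark let-7 signal. No let-7 spot was saturated, the highest being the let-7e spot of 5984.

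**Figure D4:**
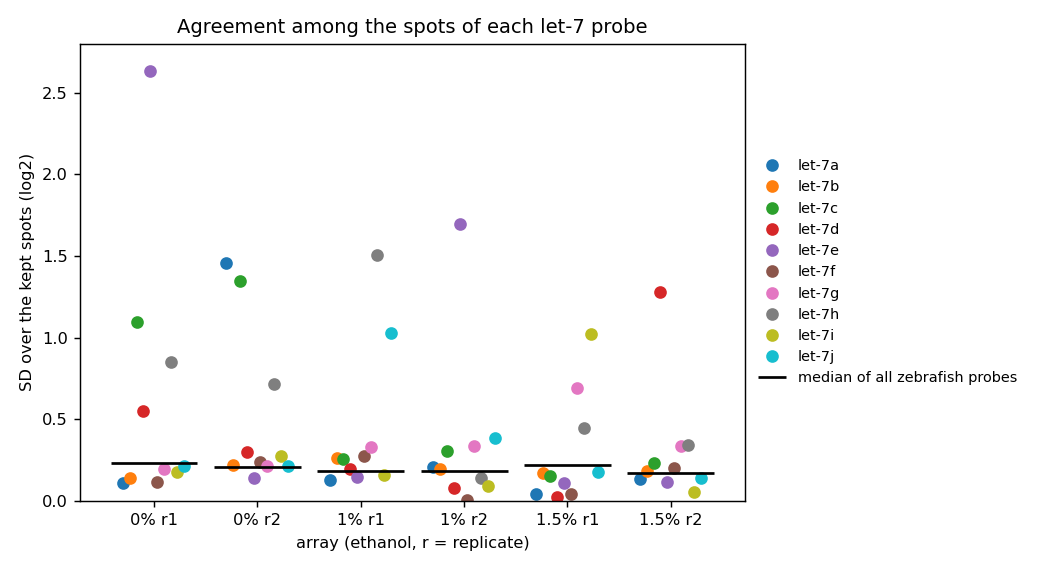
Standard deviation of the log2 values over the kept spots of each let-7 probe on each array of the 0%, 1% and 1.5% ethanol groups, with r for replicate; the black line is the median over the 243 zebrafish probes on that array. Most points lie near the line, 9 lie over 1, and let-7e on the first control array is highest at 2.63.

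The miR-100, miR-99 and miR-125 families, whose genes in part lie beside let-7 genes, were measured by 5 probes, for miR-100, miR-99 and miR-125a, b and c, of which miR-100 alone lay above the empty spots, on 5 arrays. None of the 5 passed the test in either comparison with control, and their median log2 fold change was 0.18 at 1% and 0.17 at 1.5% ethanol. miR-100, a neighbour of let-7a genes, read 8.90 and 8.0 in control, 9.07 and 8.63 at 1% ethanol, and 9.29 and 8.32 at 1.5% ethanol. The groups overlapped, with differences from control of 0.40 at 1% and 0.36 at 1.5% (SE 0.42 each, limma adjusted p 0.874 and 0.964). miR-125a, which has no let-7 gene within 10 kb in this annotation and was above the empty spots on no array, read 7.24 and 7.41 in control, 7.79 and 7.42 at 1% ethanol, and 7.35 and 7.49 at 1.5% ethanol.

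Probes of other species for let-7 or its relative miR-98 carry no zebrafish name, and 8 were present. None was above the empty spots on all 6 arrays, 3 were on some, and none passed the limma test adjusted over 1078 miRNA probes of all species, where the share called was 0.186% at 1% ethanol and 0% at 1.5% ethanol against control. A probe for the passenger strand of mouse let-7d, mmu-let-7d*, read 7.15 and 7.28 in control, 7.02 and 7.12 at 1% ethanol, and 7.94 and 8.02 at 1.5% ethanol. Its 1.5% arrays were higher than all others, by 0.76 against control (SE 0.15, limma adjusted p 0.584). That probe was above the empty spots on 2 arrays, and zebrafish let-7d, which differed by -0.07, on none. The human let-7d probe read 7.56 and 7.39 in control, 7.14 and 7.59 at 1% ethanol, and 7.03 and 7.36 at 1.5% ethanol. On that probe both 1.5% arrays lay below both control arrays, with a difference of -0.28 (SE 0.22, limma adjusted p 0.983). The human probe was above the empty spots on no array, so these values lie near background. No share over the 1078 probes is set beside either ordering. Among zebrafish probes both 1.5% arrays were higher than both control arrays for 11.5% and lower for 17.3%.

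The mouse let-7i probe, singled out after its values were seen, read 6.79 and 6.80 in control, 7.70 and 7.83 at 1% ethanol, and 7.31 and 7.45 at 1.5% ethanol. Both ethanol groups were higher than control without overlap, by 0.97 at 1% (SE 0.15, limma adjusted p 0.261) and 0.59 at 1.5% (SE 0.15, limma adjusted p 0.982). The zebrafish let-7i probe differed from control by -0.05 at 1% and 0.24 at 1.5% ethanol. The mouse probe was above the empty spots on 2 arrays and the zebrafish probe on none. No share over all probes is set beside the mouse probe's lack of overlap.

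Worm probes for lin-4 and the let-7 relatives miR-48, miR-84 and miR-241 cleared the empty spots on no array, and none of the 4 passed the test. cel-miR-48, which acts with let-7 relatives in larval timing, read 7.60 and 7.28 in control, 7.94 and 7.44 at 1% ethanol, and 7.36 and 7.56 at 1.5% ethanol. cel-miR-84 read 7.22 and 6.98 in control, 7.95 and 7.18 at 1% ethanol, and 7.69 and 7.01 at 1.5% ethanol. The groups of both probes overlapped.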

How the data were processed

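Per the file headers, the deposited scanner output gives for every spot a raw foreground intensity and a background intensity around it, in 1 channel. The authors' deposited table is on a log2 scale. Of its 1440 values 1438 were rebuilt to within 0.001 as the mean log2 foreground of kept spots of at least 100 units minus the mean of the Ncode_Control spots. It served as an alternative only.

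Background was corrected by normexp (offset 50), ignore-marked spots were then dropped, and log2 values of miRNA spots were quantile normalised between the 6 arrays and averaged over the kept spots of a probe. limma 3.58.1 in R 4.3.3 fitted 1 linear model of the 3 groups. Two-sided p-values were adjusted (Benjamini-Hochberg) over 243 zebrafish probes, or over 1078 for probes of other species, and called under 0.05. Without a block, residual degrees of freedom were 3 and prior ones 3.15. The model was also run on simulated data with independent normal noise, without slide effects or deviating single spots. Such data do not show how the model handles those features of these arrays. A floor is the lowest normalised level of any zebrafish probe above the empty spots on an array.

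All 10 members are named. Of each further list the 2 probes with the highest mean level are given, and the mouse let-7i probe was added after its values were seen. Members and lists were chosen with earlier results of these data known. No probe or miRNA sequence was used. Levels of different probes were set against each other only to pick those listed probes and to set the floor.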

Additional observations from a re-analysis of the deposited data

How the results depend on the processing

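Across 29 alternative settings, 834 let-7 differences were recomputed, of which 5 passed the threshold, 80 turned sign and 101 moved by at least 1 SD of the replicates. For let-7c at 1% ethanol against control the difference kept its direction throughout, from -2.76 to -1.31, with adjusted p from 0.0176 to 0.991. The count of let-7 members past the threshold at 1% ethanol was 0, and became 1, let-7c, with arrays scaled on the empty and blank spots (-1.84, adjusted p 0.0437). It also became 1, let-7c, when probes that cleared the empty spots on any array were fitted with slide position as a block (-1.67, adjusted p 0.0176), a setting chosen after seeing the data that also gave let-7c at 1.5% against 1% ethanol (1.49, adjusted p 0.0424). Since let-7c passed that filter through control and 1.5% arrays alone, where it is high, these calls are not support. At 1% against control the filter alone gave an adjusted p of 0.221 and the position block alone 0.242. In the test for any difference it was 1, let-7c, in that setting and with Ncode_Control scaling. On the authors' deposited table let-7d was the 1 member past the threshold at 1.5% ethanol against control (2.33, adjusted p 0.0465), at 1.5% against 1% ethanol (2.39, adjusted p 0.0448) and in the test for any difference, on 1 spot of 1 array. In that table let-7d has 1 array at 1% and 1 at 1.5% ethanol. Scaling on the empty and blank spots shifted the median of all zebrafish probes at 1% ethanol to -0.21, where that of the members was -0.35. Without normalisation the medians of all probes at 1.5% ethanol were -0.14 against control and -0.24 against 1% ethanol, with Ncode_Control scaling 0.21 against control, and 0.27 at 1% and 0.32 at 1.5% against control in the authors' deposited table.

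Counts over all zebrafish probes, 1 at 1% ethanol against control, 0 at 1.5% against control, 0 at 1.5% against 1% ethanol and 1 for any difference, also moved. At 1% against control they were 0 without normalisation, with the median over spots, on the authors' deposited table, with spots under 100 left out and in the lower print blocks, 2 with empty and blank spot scaling and in the upper print blocks, 3 with Ncode_Control scaling and slide as a block, and 4 with the filter and position block. At 1.5% against control they were 2 with Ncode_Control scaling and slide block and 1 on the authors' deposited table. At 1.5% against 1% ethanol they were 1 in either set of print blocks, 2 without normalisation, 3 on the authors' deposited table, and 4 with Ncode_Control scaling, slide block, or the filter and position block. For any difference they were 0 without normalisation, with cyclic loess, 75th percentile scaling, ignore-marked spots kept, median over spots, the filter alone, all species, spots under 100 left out or the lower blocks, 2 in the upper blocks, 3 on the authors' deposited table, 5 with the filter and position block, and 6 with Ncode_Control scaling or slide block. Leaving out each array in turn gave 0 to 3 at 1% against control (3 without the second 1% array), 0 at 1.5% against control, 0 to 3 at 1.5% against 1% ethanol (3 without the second 1% array) and 0 to 1 for any difference. A group left with 1 array was taken to vary like the others. The causes were not tested.

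With replicate number as a block (limma) the count for any difference was 0, let-7c at 1% ethanol was -1.67 (adjusted p 0.452), and no let-7 call changed. Deviations of same-numbered arrays correlated at -0.03, 0.27 and -0.04 over 243 probes, so the numbers were not taken to pair the samples. The first control and first 1% arrays also share a slide, as do the second 1% and second 1.5% arrays. Same-numbered control and 1.5% arrays, which correlated at 0.27, share a position on their slides, upper for the first and lower for the second. Whether slide or position entered these correlations was not tested. Signal over background limits most members: 6 of the 10 lay above the empty spots on no array.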
